A study of Equus caballus with 8 samples.

Results

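The genes described here encode the machinery that carries secreted proteins into the endoplasmic reticulum (ER) and from there to the Golgi. They were matched by gene symbol alone, and the symbols were chosen with earlier results of these data known. The symbols cover the signal recognition particle (SRP), the SEC61, SSR and SPCS genes of protein entry, the ER chaperones and disulfide isomerases, the COPII and COPI coat genes, the TMED and KDELR cargo receptors, the TRAPPC tethering genes, and the regulators XBP1, ERN1, ATF6, CREB3L1 and CREB3L2. Of the 15266 named genes in the table, 86 matched, and all 86 passed the filter on low values. MIA3 and SEC22B, whose symbols the match also covers, were not among the 86 and were not analysed here. SEC14L1 and SEC14L2, which encode lipid-binding proteins, matched by their letters and are counted with the rest.

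The cells were equine BM-MSCs, mesenchymal stem cells grown from marrow of the sternum, of 4 horses labelled D, J, L and W. These are stromal cells that attach to plastic. Marrow of every horse was divided between untreated cultures and cultures treated with 1 ng/ml human recombinant TGF-β2, which gave 4 untreated and 4 TGF-β2-treated libraries paired by horse. All cultures were grown in low-glucose medium with 10% fetal bovine serum and basic fibroblast growth factor, and RNA was taken at passage 3 or 4. The labels give the exposure as lasting from isolation, whereas the methods name 3 passages. The horses were adult Thoroughbreds or Thoroughbred crosses, and each library is 1 culture of 1 horse, so the spread between libraries holds the differences between horses. The untreated libraries held 40044240 to 57228675 counted reads and the treated libraries 39184554 to 46634539. Values are given as normalized counts, which are reads after division by the library's size factor, always in the order of horses D, J, L and W. They are not divided by gene length, so levels are not compared between genes.

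As background, a protein that is to be secreted is recognised by SRP as its signal sequence leaves the ribosome, and it passes through the SEC61 channel into the ER lumen, where the signal peptide is cut off. HSPA5, HSP90B1, calnexin, calreticulin and the disulfide isomerases help it to fold. COPII coats bud transport carriers from ER exit sites toward the Golgi, TRAPP complexes help to tether them, and COPI coats carry escaped ER residents back, which KDEL receptors recognise by the tetrapeptide at their end. Fibroblast-like cells depend on this route for procollagen, which is too long for a standard COPII vesicle. When unfolded proteins accumulate, ERN1, ATF6 and the kinase encoded by EIF2AK3 start the unfolded protein response.

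Many of these genes rose after TGF-β2 treatment. Of 86 genes, 43 were higher and 4 lower in treated cells, and 39 did not pass the test. The test was limma on log2(normalized count + 1) with the horse as a block, at a Benjamini-Hochberg adjusted p under 0.05 over all 14907 genes tested. Higher genes made up 50% of these genes, against 15.7% of all genes tested. Lower genes made up 4.65%, against 15.3%. The 4 lower genes were all TRAPPC genes. Most changes were small. CREB3L1, SEC16B, TRAPPC3L, KDELR3, SEC24D and PDIA4 were the 6 higher genes that changed over 2-fold (6.98%, against 6.83% of all genes), and 0 lower genes did (against 7.31%). The lowest log2 fold change of the 86 was that of SEC31B, -0.49. All 47 called genes moved in the same direction in all 4 horses. The test itself favours genes in which the horses agree, so this count is not separate support. Without overlap, treated libraries were above untreated ones in 42 of the 86 genes (48.8%, against 13.9% of all genes) and below them in 2 (2.33%, against 13.9%). The log2 change was positive in every horse for 56 genes (65.1%, against 26.3%).

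The median log2 fold change of the 86 genes was 0.40, and that of all genes tested was 0.0055. The size of these changes depended on how libraries were scaled. FN1, COL1A1 and COL1A2 together took 0.881% to 6.27% of the reads in untreated and 10.3% to 14.4% in treated libraries. Scaled to equal library totals, the median gene had a log2 fold change of -0.30 and the median of the 86 genes was 0.087. Total scaling moves every gene by nearly the same amount, so the distance between both medians, 0.39 under either scaling, could hardly differ. The calls could change and did. Under total scaling 11 of the 86 genes were higher and 13 lower, where 8.01% of all genes were higher and 35.2% lower. Of the 43 genes called higher, 42 kept a positive log2 fold change under total scaling and PDIA5 did not. The 86 genes together took 1.38, 1.61, 1.70 and 1.66% of all reads in the untreated libraries and 1.97, 2.07, 1.75 and 1.92% in the treated ones. This share, which does not depend on the size factors, was higher in the treated library of every horse, and the groups did not overlap, although horse L differed by little.

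The number of calls depended on which horse was left out. With horse D left out 7 genes were higher and 0 lower, and with horse W left out 8 were higher and 0 lower. Leaving out J gave 40 higher and 2 lower, and leaving out L gave 31 and 1. At an unadjusted limma p under 0.05, 40 were higher and 3 lower without D, and 45 and 4 without W. The fit with all 4 horses had 55 higher and 6 lower at that unadjusted threshold. Over all genes 4610 were called at an adjusted p under 0.05 with all 4 horses, 1569 without D, 1425 without W, 3081 without L and 5551 without J. The median log2 fold change of the 86 genes was 0.33 without D and 0.37 without W. SEC16A, SEC24D, KDELR3, SSR3, HSP90B1, PDIA4 and PDIA6 were called whichever horse was left out.

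The methods name a surface panel published earlier for cells grown by this protocol. Here the mRNA of its genes was measured, not the surface protein. CD44 and ITGB1 (CD29) were abundant in every library. ITGB1 was higher in treated cells, with a log2 fold change of 0.91 (limma adjusted p 0.0159) and no overlap between the groups, and CD44 had one of 0.43 (0.135) and did not pass. THY1 (CD90) ranged from 24238 to 199815 normalized counts in untreated and from 7344 to 37850.1 in treated cells and was called lower, with a log2 fold change of -2.21 (limma adjusted p 0.00203). The markers meant to be absent were low. ITGAL (LFA-1) ranged from 21.3 to 53.9 and from 20.4 to 48.3 in the same order, and PTPRC (CD45) ranged from 1.74 to 109.7 and from 1.19 to 23. Of the 4 macrophage markers looked for, CD68, CSF1R and ITGAM were listed. Their summed level was 477 to 2459 normalized counts in untreated and 374 to 717 in treated libraries, highest in the untreated library of horse J. JCHAIN and CD3E, the 2 of 4 lymphoid and plasma cell markers listed, summed to 372 to 586 in untreated and 183 to 251 in treated libraries. JCHAIN was called lower in treated cells, with a log2 fold change of -0.94 (limma adjusted p 0.0124) and no overlap between the groups. Without horse D its limma adjusted p was 0.0621. CD3E was at 0 in all treated libraries and in the untreated ones of D and L. CDH5, the only listed one of 3 endothelial markers, had at most 23.8. The part of other cell types in the results was not tested, and in bulk samples fewer cells of a type and less RNA per cell cannot be told apart.

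**Figure D1:**
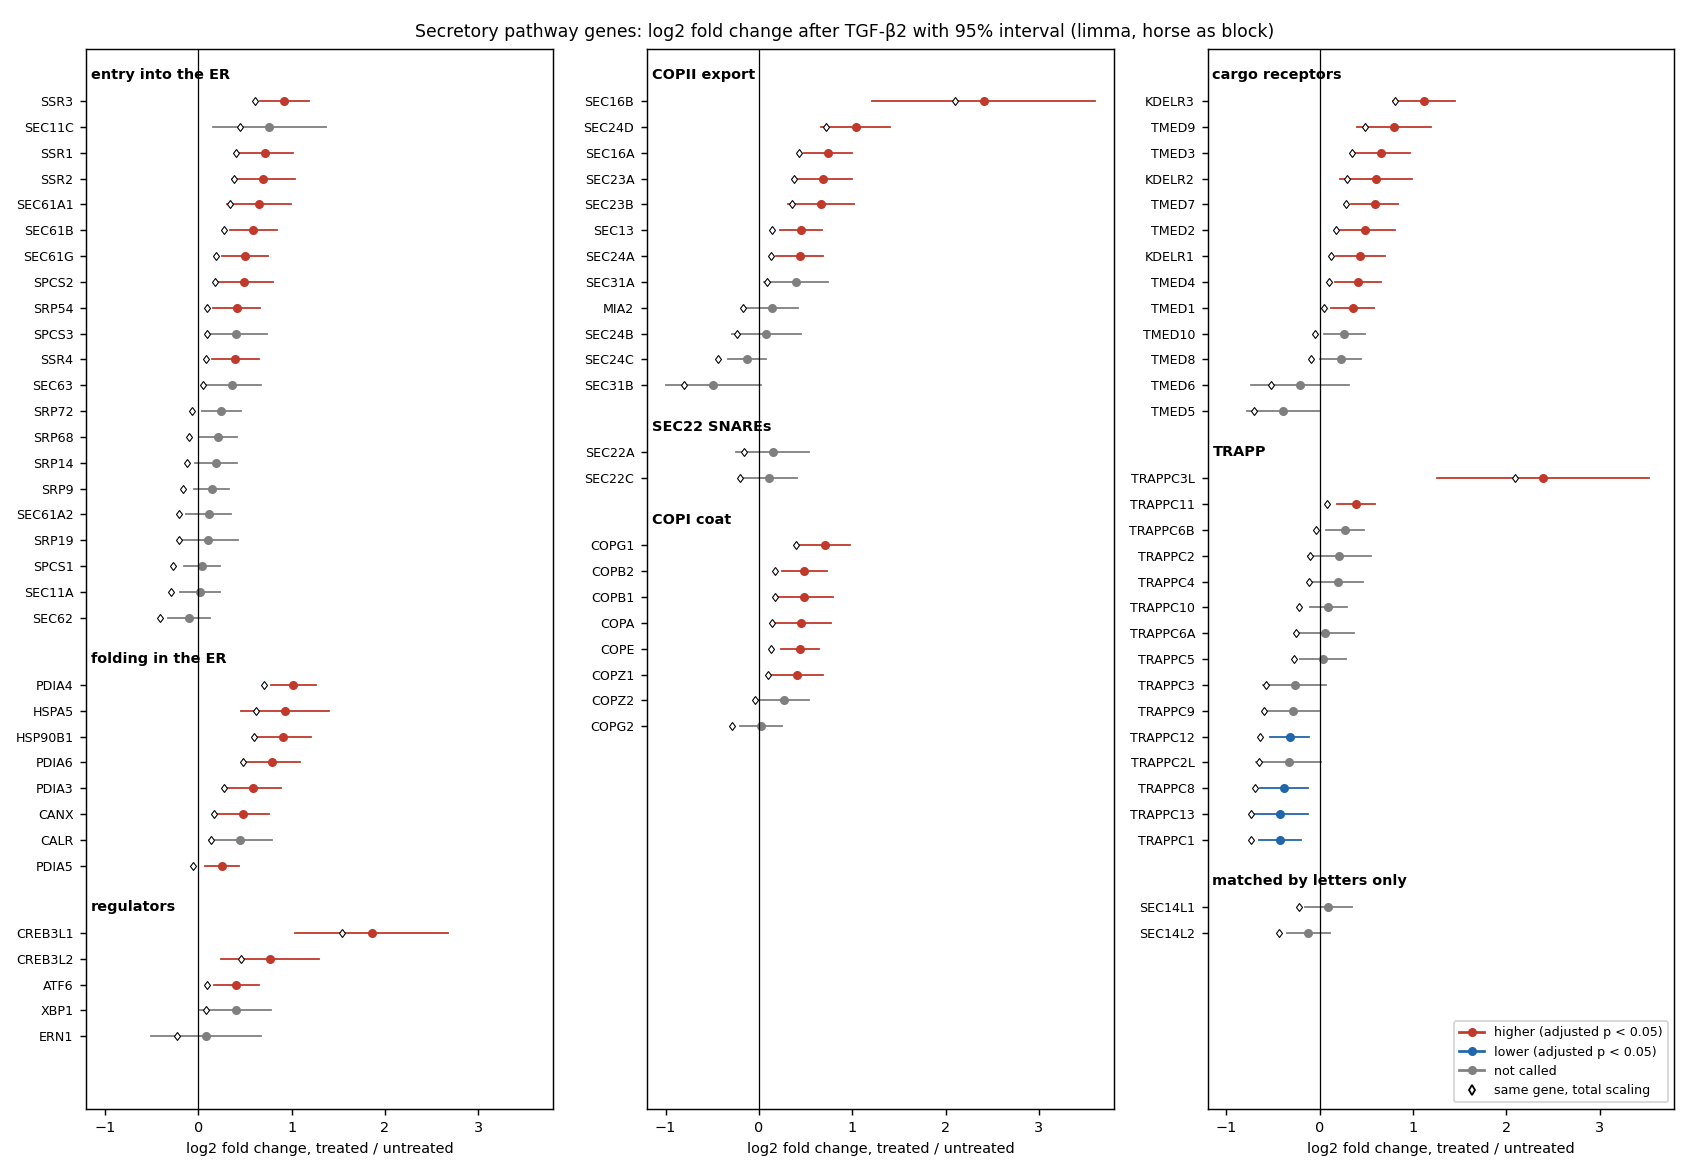
Log2 fold change (treated over untreated) of each of the 86 genes with its 95% confidence interval from limma with the horse as a block, ordered within role groups. Red and blue mark genes called higher (43) and lower (4), grey marks genes not called, and open diamonds give the estimate under total scaling, which lies to the left by about 0.31 and crosses 0 for 25 genes, PDIA5 among the called ones.

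The horses differed in how far the genes moved. The median change of the 86 genes was 0.52 in horse D, 0.37 in J, 0.22 in L and 0.36 in W, while the median of all genes tested lay between -0.011 and 0.0094. Horse L had the smallest change of the 4 in 29 of the 43 higher genes, and its untreated library had the highest untreated level in 27 of them. The untreated library of horse D was the lowest in 25 and that of J in 15. Horse D showed the largest change in 26. A high untreated level and a small change share the same value, so these counts are not independent of each other.

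**Figure D2:**
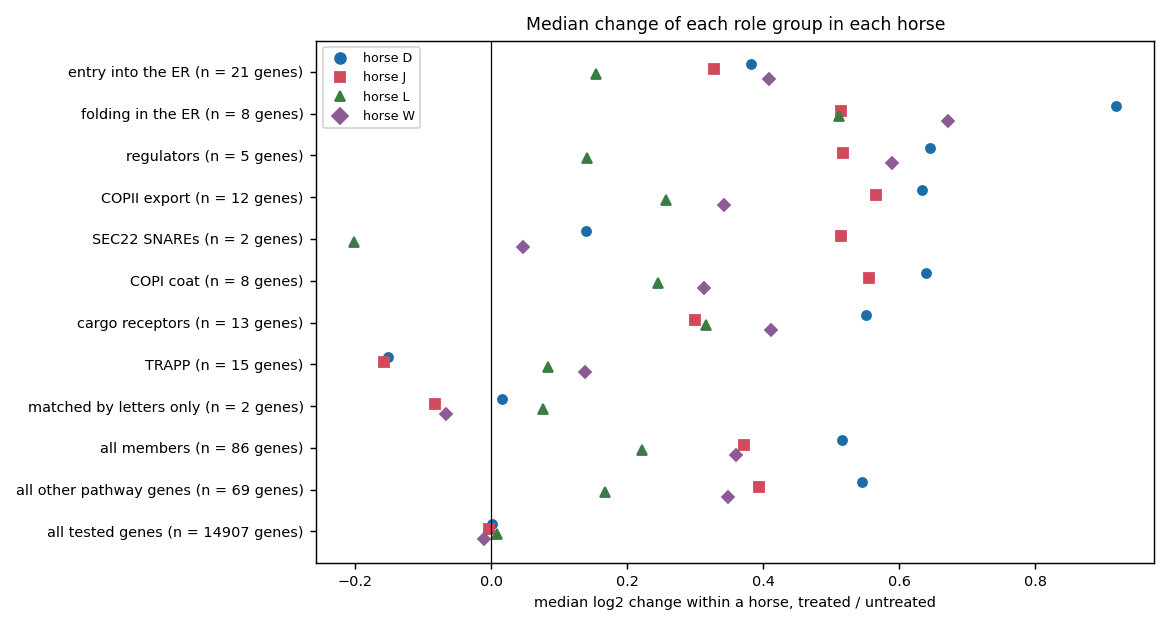
Median log2 change within each horse (x axis) for each role group, for all 86 genes, for 69 other genes of the pathway and for all 14907 genes tested, with 1 symbol per horse. The folding group lies between 0.51 and 0.92 in the 4 horses, the TRAPP group between -0.16 and 0.14, and all genes tested near 0.

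Genes for entry into the ER rose in 9 of 21 cases, with none lower, where 15.7% of all genes were higher and 15.3% lower. The translocon-associated protein complex, which binds beside the channel, has 4 subunits encoded by SSR1 to SSR4, and all 4 were higher, by 0.40 to 0.92 on the log2 scale. SSR3 had 5505, 6587, 6631 and 6118 normalized counts in the untreated libraries and 10875, 10659, 11726 and 13856 in the treated ones. No treated library was near an untreated one, and the gene rose by 0.92 ± 0.11 (SE) in log2 (limma adjusted p 0.00424, and 0.00695 under total scaling). SSR1 followed with a log2 fold change of 0.71 and SSR2 with 0.70. SSR4 had one of 0.40 (limma adjusted p 0.0348), and without the horse in the model its adjusted p became 0.171.

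The SEC61 channel itself has an alpha, a beta and a gamma subunit. SEC61A1, which encodes the pore-forming subunit, had 22003, 23397, 33072 and 26520.4 normalized counts in untreated and 40617, 40862, 39573 and 41745 in treated cells. Its log2 fold change was 0.65 ± 0.14 (SE, limma adjusted p 0.0210), and the treated libraries lay within a narrow band above all untreated ones. SEC61B rose by 0.59 and SEC61G by 0.50. SEC61A2, a second alpha subunit gene, had 650.0, 588, 646 and 652 normalized counts untreated and 659.9, 674, 684 and 719.6 treated and a log2 fold change of 0.11 (limma adjusted p 0.419). For the channel partners SEC62 and SEC63 the log2 fold changes were -0.10 and 0.36, and neither passed the test.

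The signal recognition particle and the signal peptidase moved less. Over all genes 15.7% were called higher. Of 6 SRP protein genes SRP54, which encodes the GTPase that binds the signal sequence, was the 1 called higher, with a log2 fold change of 0.41 (limma adjusted p 0.0308). The other 5 had log2 fold changes of 0.11 to 0.25. Of the 5 signal peptidase genes SPCS2 was called higher, with 0.49 (limma adjusted p 0.0363). SEC11C, one of the catalytic subunit genes, had 691, 1934, 1219 and 899 normalized counts in untreated and 1660.4, 1783, 2018 and 2027 in treated cells. It went up in horses D, L and W and down in J, and its change of 0.76 ± 0.24 (SE) in log2 did not pass (limma adjusted p 0.0641). DESeq2 on the recovered reads called SEC11C and SPCS3. SEC11A, the other catalytic subunit gene, had a log2 fold change of 0.017. Under total scaling 1 of the 21 entry genes was called higher, SSR3, and 2 were called lower, SEC62 (log2 fold change -0.41, limma adjusted p 0.0284) and SPCS1 (-0.28, 0.0380). Of all genes 8.01% were then higher and 35.2% lower, and the median log2 fold change was -0.30. With horse D or W left out 1 of the 9 calls held.

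Of the 8 folding genes 7 were higher and none lower, where 15.7% of all genes were higher and 15.3% lower. The median log2 fold change of the 8 was 0.69. HSPA5, which encodes the ER chaperone BiP, had 22094, 33374, 55258 and 34123 normalized counts in the untreated and 56327, 57016, 72755 and 79206 in the treated libraries. All treated libraries were above all untreated ones, although the untreated library of horse L came close to the treated ones of D and J. The log2 fold change of HSPA5 was 0.93 ± 0.19 (SE), with a limma adjusted p of 0.0187, which became 0.0877 without horse D and 0.0859 without W. HSP90B1, the ER member of the HSP90 family, had 30564, 38344, 37639 and 36128 normalized counts untreated and 67354, 64689.7, 66029 and 68774 treated. The 4 horses agreed closely in this gene, whose log2 fold change of 0.91 (limma adjusted p 0.00618) ran from 0.75 to 1.14 over the horses.

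Of the lectin chaperones, which hold glycoproteins during folding, CANX (calnexin) had 29555, 34970.0, 36884 and 34191 normalized counts in untreated and 46628, 45651, 47024 and 49054 in treated cells. Its log2 fold change was 0.48 (limma adjusted p 0.0271). CALR (calreticulin) had 52017, 73656, 60633 and 69789.6 normalized counts untreated and 85187, 93546, 79451 and 89709 treated. The treated libraries again lay above the untreated ones, with a log2 fold change of 0.45, but the limma adjusted p was 0.0535. Both count models called CALR, with adjusted p of 8.00e-04 from DESeq2 and 0.0466 from edgeR.

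All 4 disulfide isomerase genes were higher, by 0.25 to 1.02, where 15.7% of all genes were higher. PDIA4 had 12772, 17112, 14385 and 17745 normalized counts in untreated and 27754, 37063, 25890.3 and 35175 in treated cells, which is a log2 fold change of 1.02 with an SE of 0.10 and a limma adjusted p of 0.00286. It was the most even of the 6 genes over 2-fold, with changes of 0.85 to 1.12 over the horses. PDIA6 rose by 0.79 and PDIA3, a partner of calnexin and calreticulin, by 0.59. PDIA5 had a log2 fold change of 0.25, which was -0.058 under total scaling, and its limma adjusted p was 0.332 without the horse in the model. In edgeR it was not called either (adjusted p 0.0534). Under total scaling HSPA5, HSP90B1, PDIA4 and PDIA6 were still called higher, and 3 of the 7 calls held without horse D and 3 without W.

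Among the 5 regulators, CREB3L1, CREB3L2 and ATF6 were higher and XBP1 and ERN1 did not pass the test. Over all genes 15.7% were higher. CREB3L1 encodes an ER-anchored transcription factor, also called OASIS, that is cut free in the Golgi and is known for driving collagen genes in bone. It had 4935, 3856, 18037 and 11908 normalized counts in the untreated libraries and 24516, 24724, 28914 and 40111 in the treated ones. The untreated libraries spread widely, with D and J low and L highest, whereas all treated libraries were higher than any untreated one. The log2 fold change was 1.86 ± 0.33 (SE), a 3.62-fold rise, with a limma adjusted p of 0.0127 and log2 changes of 0.68 to 2.68 over the horses. Without horse D or W the limma value was 0.0656 and 0.0671.

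CREB3L2, a close relative known for its role in cartilage secretion, had 7105, 4376, 9668 and 7346 normalized counts in untreated and 11390.4, 12796, 12077 and 10546 in treated cells. The log2 fold change was 0.77 ± 0.21 (SE, limma adjusted p 0.0425), and horse J changed the most. ATF6, whose product is an ER stress sensor, had 2937, 3708, 6028 and 3693 normalized counts untreated and 4256, 5289.7, 6647 and 5029 treated. It rose in every horse while the groups overlapped, with a log2 fold change of 0.41 and a limma adjusted p of 0.0284, or 0.230 without the horse in the model. XBP1, the transcription factor whose mRNA is spliced by the ERN1 product, had 5142, 5523, 9347 and 6998 normalized counts untreated and 8042, 7905, 8413 and 10525 treated. It was higher in horses D, J and W and lower in L, with a log2 fold change of 0.40 and a limma adjusted p of 0.101. Counts per gene do not separate the spliced from the unspliced XBP1 mRNA. ERN1 had 1891, 3466, 3398 and 1714 normalized counts untreated and 2479, 2100.5, 3334 and 2794 treated and a log2 fold change of 0.086 ± 0.24 (SE), up in D and W and down in J and L. Of the 3 calls among the regulators none held without horse D or without W, and under total scaling CREB3L1 was the one still called.

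**Figure D3:**
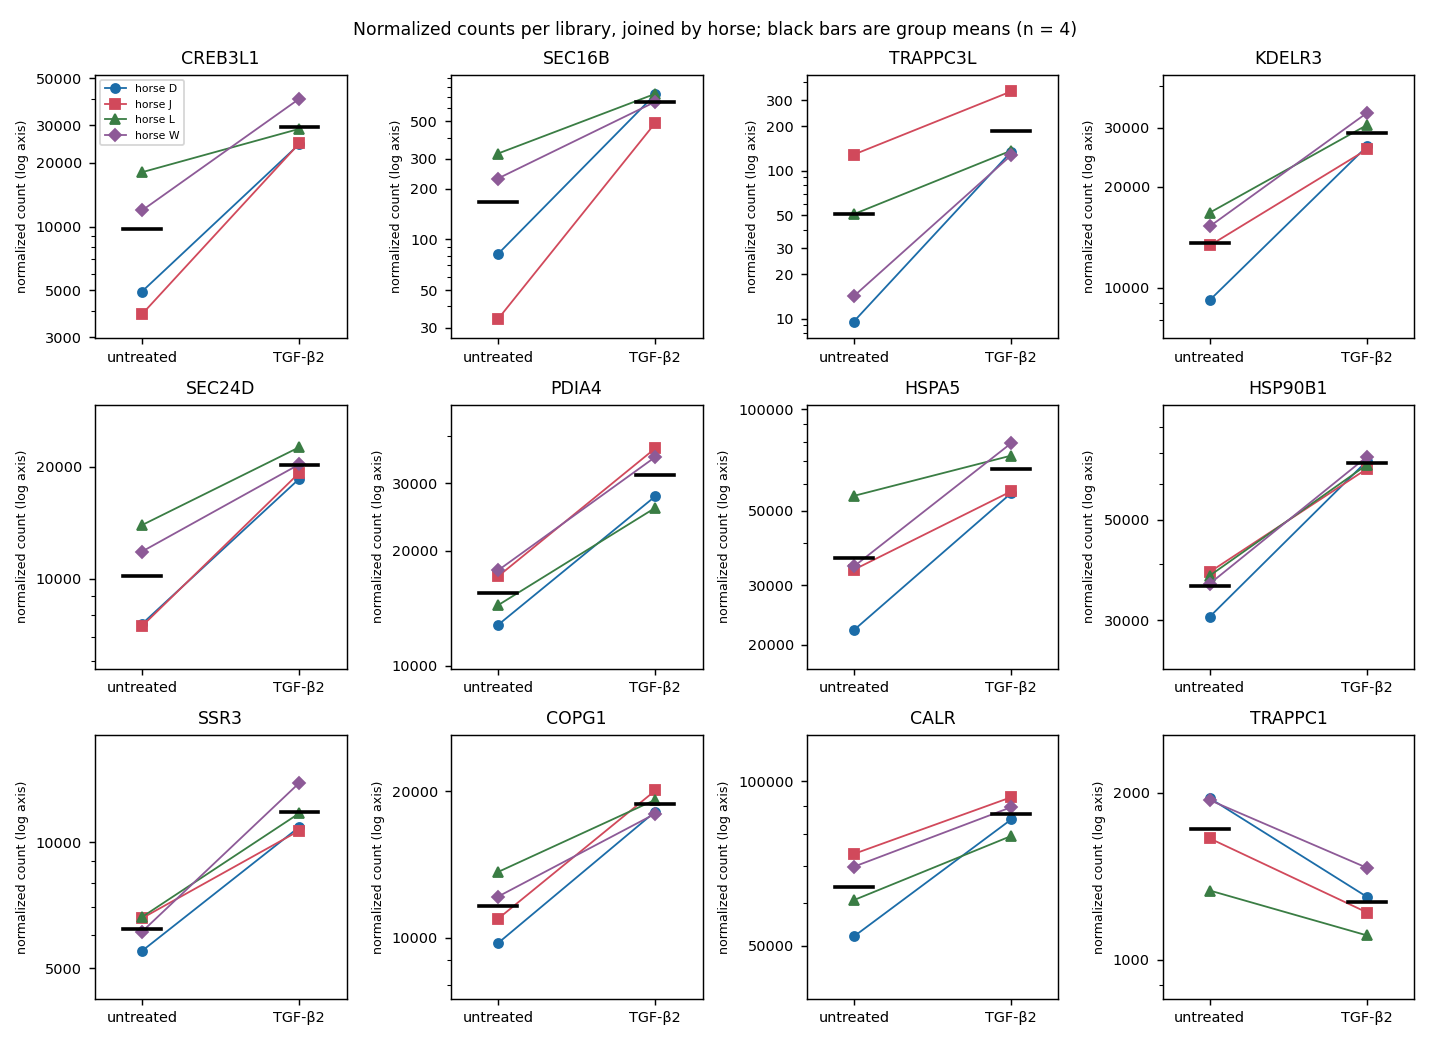
Normalized counts (log axis, a separate range for each gene) of 12 of the genes in the untreated and treated library of each horse, joined by lines, with black bars for the group means (n = 4). In CREB3L1 and SEC16B the horses start far apart and end close together, in HSP90B1 they move nearly in parallel, and TRAPPC1 falls in all 4 horses.

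Of 12 COPII export genes 7 were higher and none lower, where 15.7% of all genes were higher and 15.3% lower. The inner coat of a COPII carrier is made of SEC23 and SEC24 proteins, and SEC24 is the part that binds cargo. SEC24D had 7569, 7466, 13950.4 and 11844 normalized counts in untreated and 18592, 19293, 22592 and 20326 in treated cells, with the treated libraries close together and above all untreated ones. Its log2 fold change was 1.04 ± 0.15 (SE, limma adjusted p 0.00744). SEC24A rose by 0.44, whereas SEC24B and SEC24C had log2 fold changes of 0.077 and -0.13 and did not pass the test. SEC23A, a gene whose loss in humans impairs collagen export, had 6520.4, 8095, 10109.7 and 10316 normalized counts untreated and 13639, 13373, 14289.6 and 14185 treated, a log2 fold change of 0.69 (limma adjusted p 0.0142). SEC23B rose by nearly as much, 0.66.

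The SEC16 proteins mark the sites where COPII carriers form. SEC16A had 5777, 5167, 9082 and 6048 normalized counts in untreated and 9603, 10555, 13675 and 9138 in treated cells and rose by 0.74 on the log2 scale (limma adjusted p 0.00709). SEC16B had far fewer reads, 81.8, 33.7, 322 and 229 normalized counts in the untreated and 724, 490.3, 729 and 654 in the treated libraries. The treated libraries were alike, and the untreated ones ran over a wide range, so the log2 changes went from 1.17 to 3.83. The fit gave 2.41 ± 0.48 (SE), the largest log2 fold change of the 86 genes, with a limma adjusted p of 0.0178, or 0.0826 without horse D and 0.0583 without W.

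Of the outer coat genes SEC13 was higher by 0.45 (limma adjusted p 0.0190). SEC31A had 11224, 9898, 15808 and 14387 normalized counts untreated and 16500.2, 16725, 17235 and 16044 treated and a log2 fold change of 0.40 that did not pass in limma (0.0779), while DESeq2 called it. SEC31B, with 87.5 to 184 normalized counts in untreated and 91.0 to 112 in treated cells, had a log2 fold change of -0.49 and did not pass. MIA2, which encodes a cargo receptor at ER exit sites that works with the product of MIA3 on procollagen, had 965, 1070.5, 1113 and 969.9 normalized counts untreated and 1217, 1158, 1016 and 1147 treated. Its log2 fold change was 0.14 (limma adjusted p 0.371). Under total scaling 3 of the 12 genes were called higher, SEC16A, SEC16B and SEC24D, and 2 were called lower, SEC24C (log2 fold change -0.44, limma adjusted p 0.0158) and SEC31B (-0.80, 0.0346). Of all genes 8.01% were higher and 35.2% lower under that scaling. Of the 7 calls 2, SEC16A and SEC24D, held without horse D and the same number without W. The SEC22 genes did not pass, with log2 fold changes of 0.15 for SEC22A and 0.10 for SEC22C.

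Of 8 COPI coat genes 6 were higher and none lower, where 15.7% of all genes were higher and 15.3% lower. COPA, COPB1, COPB2, COPE, COPG1 and COPZ1 were higher, by 0.41 to 0.71 on the log2 scale, and COPG2 and COPZ2 did not pass. COPG1 had 9745, 10932, 13640.4 and 12143 normalized counts in untreated and 18151, 20052, 19194 and 17971 in treated cells. The groups were separate, with a log2 fold change of 0.71 ± 0.11 (SE) and a limma adjusted p of 0.00899. COPB2, a subunit that binds retrieval signals, had 10871, 11899, 13026 and 14169.8 normalized counts untreated and 17060.0, 17798, 16568 and 18152 treated and rose by 0.48 (limma adjusted p 0.0179). COPA, the largest subunit, had 12240.3, 12173, 17551 and 16541 normalized counts untreated and 18941, 20079.8, 19449 and 20323 treated. Its change of 0.45 was near the limit of the test, with a limma adjusted p of 0.0466, or 0.0540 without the horse in the model, and edgeR did not call it. COPZ1 was similar, with a log2 fold change of 0.41 and limma adjusted p of 0.0442 and 0.100. COPZ2 had 1665, 1363, 2882 and 2344 normalized counts untreated and 2175, 1825, 2784 and 2942 treated and a log2 fold change of 0.27 (limma adjusted p 0.109). None of the 6 calls held under total scaling or without horse D, and 1 held without W.

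All 3 KDEL receptor genes were higher, where 15.7% of all genes were higher. KDELR3 had 9176, 13356, 16726 and 15222 normalized counts in untreated and 26389.8, 25833, 30542 and 33198 in treated cells, more than 2-fold apart on average. The log2 fold change was 1.12 ± 0.13 (SE), with a limma adjusted p of 0.00474 and of 0.00899 under total scaling. KDELR2 rose by 0.60 from 11229, 13046, 17079 and 16004 to 22292, 23039.9, 19578 and 21296 normalized counts, and horse L changed the least. KDELR1 rose by 0.43 (limma adjusted p 0.0308).

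TMED genes encode the p24 family, small membrane proteins that cycle between ER and Golgi and sort cargo such as proteins with a lipid anchor. Of 10 such genes, TMED1, TMED2, TMED3, TMED4, TMED7 and TMED9 were higher, by 0.35 to 0.80. None was called lower, and over all genes 15.7% were higher and 15.3% lower. TMED9 had 4234, 3896, 6201 and 5172 normalized counts in untreated and 9114, 8617, 7846 and 7885 in treated cells, which is a log2 fold change of 0.80 ± 0.16 (SE, limma adjusted p 0.0179). TMED3 rose by 0.66, with untreated levels that differed between horses, and its limma adjusted p was 0.0156 with the horse in the model and 0.13 without it. TMED1 was likewise called only with the horse (limma adjusted p 0.0373 and 0.245). TMED10 had a log2 fold change of 0.26 and did not pass in limma (0.0729), whereas DESeq2 called it. TMED5 had a negative log2 fold change, -0.39, with a lower level in all 4 horses, and did not pass (limma adjusted p 0.105). Under total scaling KDELR3 was the cargo receptor gene still called higher and TMED5 was called lower, as were 35.2% of all genes. Of the 9 calls 1 held without horse D and 1 without W, KDELR3 in both.

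Of 15 TRAPP genes 2 were higher and 4 lower, where 15.7% of all genes were higher and 15.3% lower. Their median log2 fold change was 0.037. TRAPP complexes are tethers and exchange factors for Rab proteins. TRAPPC1, a subunit of the shared core, had 1953, 1654, 1332 and 1938 normalized counts in untreated and 1297, 1216, 1106 and 1463 in treated cells. It was lower after treatment in every horse, with a log2 fold change of -0.43 ± 0.090 (SE), although the groups overlapped, with the untreated library of horse L at the level of treated ones. The limma adjusted p was 0.0209 with and 0.0748 without the horse in the model. TRAPPC13, TRAPPC8 and TRAPPC12 had log2 fold changes of -0.42, -0.39 and -0.32. Without the horse TRAPPC8 was still called (limma adjusted p 0.0234), and TRAPPC12 and TRAPPC13 were not (0.0731 and 0.121). TRAPPC13 was not called by edgeR either (adjusted p 0.0502). Under total scaling 7 of the 15 genes were called lower and 1, TRAPPC3L, higher, where 35.2% of all genes were lower and 8.01% higher. The 7 were these 4, with log2 fold changes of -0.64 to -0.74, and TRAPPC2L, TRAPPC3 and TRAPPC9 (limma adjusted p 0.0117, 0.0178 and 0.00943). TRAPPC11, described next, was then not called (0.506).

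TRAPPC11 rose by 0.39 (limma adjusted p 0.0214), from 2192, 2001, 2250.2 and 2219 to 2639, 2734, 3234 and 2766 normalized counts. TRAPPC3L, a relative of the core subunit gene TRAPPC3, was read sparsely, with 9.57, 129, 50.9 and 14.2 normalized counts in the untreated and 135, 344, 137 and 127 in the treated libraries. Horse J was high in both groups, and its untreated library reached the level of the treated ones of D, L and W. The log2 fold change of 2.39 ± 0.46 (SE) had a limma adjusted p of 0.0159, of 0.0576 without the horse in the model, of 0.0578 without horse D and of 0.0815 without W. TRAPPC3 itself had 3931, 2662, 2300.1 and 2748 normalized counts untreated and 2482, 2234, 2479.7 and 2295 treated and a log2 fold change of -0.27, which did not pass. The 14 genes other than TRAPPC3L lay between -0.43 and 0.39. Among them TRAPPC6B, with a log2 fold change of 0.27, did not pass in limma (adjusted p 0.0564), while DESeq2 called it (adjusted p 0.0191). None of the 6 TRAPP calls held without horse D or without W. SEC14L1 and SEC14L2 had log2 fold changes of 0.092 and -0.12 and did not pass. SEC14L2 was called lower under total scaling (-0.43, limma adjusted p 0.0226), as were 35.2% of all genes.

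The log2 changes of related genes were compared within each horse for 18 pairs in families fixed by name, with an exact two-sided sign-flip permutation test. With 4 horses the smallest p this exact test can give is 1 in 8, so no pair could pass, and the smallest Benjamini-Hochberg value over the 18 pairs was 0.188. In 12 of 18 pairs the difference had the same sign in all 4 horses. SEC16B changed more than SEC16A by 1.67 ± 1.09 (SD, n = 4 horses) on the log2 scale, from 0.58 to 2.79. CREB3L1 exceeded CREB3L2 by 1.09 ± 0.53, and SEC24D exceeded SEC24C by 1.16 ± 0.32. All 3 differences were positive in every horse.

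The SEC24 genes formed an order, with SEC24D above SEC24A by 0.60 ± 0.23 and SEC24A above SEC24C by 0.56 ± 0.13, both in all 4 horses. SEC24B changed place from horse to horse, and its difference from SEC24C ran from -0.40 to 0.53. SEC31A exceeded SEC31B by 0.89 ± 0.15, COPG1 exceeded COPG2 by 0.69 ± 0.23, and SEC61A1 exceeded SEC61A2 by 0.54 ± 0.28. KDELR3 exceeded KDELR2 by 0.51 ± 0.27 and KDELR1 by 0.68 ± 0.34. For SEC23A against SEC23B the difference was 0.023 ± 0.27, from -0.37 to 0.27, so neither gene was ahead throughout. The same was true of COPZ1 against COPZ2 (-0.17 to 0.30), SEC22A against SEC22C (-0.11 to 0.22) and SEC11C against SEC11A (-0.28 to 1.26). These differences are within a library pair and do not depend on the scaling beyond the pseudocount of 1.

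**Figure D4:**
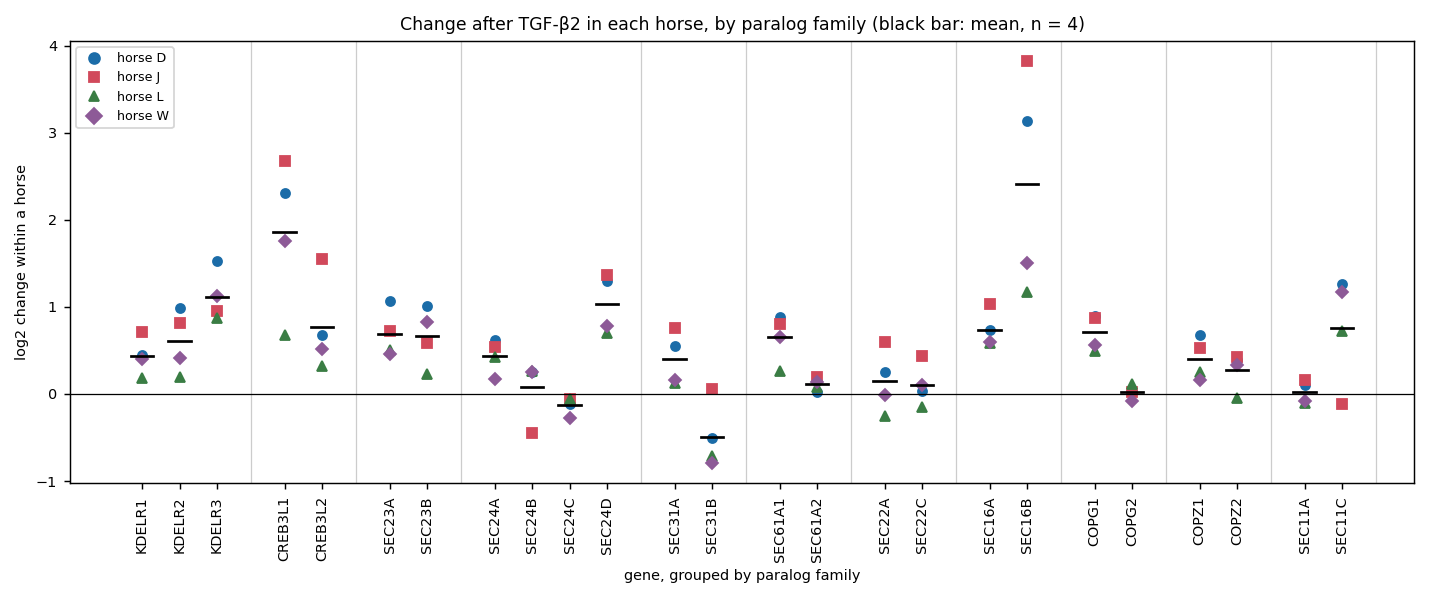
Log2 change within each horse (treated over untreated) for genes grouped by paralog family, 1 symbol per horse, with black bars for the mean (n = 4). SEC16B, CREB3L1, SEC24D, COPG1, SEC31A and KDELR3 lie above the relatives they were paired with in every horse, whereas SEC23A and SEC23B interleave.

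Of 71 other genes of the same pathway looked for by name, 69 were listed. Of these, 34 were higher and 4 lower, where 15.7% of all genes were higher and 15.3% lower. Their median log2 fold change was 0.41. Under total scaling 14 were higher and 16 lower, where 8.01% of all genes were higher and 35.2% lower. Among folding and ER-associated degradation genes, 14 of 20 were higher. HYOU1, an exchange factor and chaperone that works with BiP, had a log2 fold change of 1.20 (limma adjusted p 0.00681), with 7799, 12381, 14863 and 10250.4 normalized counts in untreated and 22664, 26388, 23742 and 28730.3 in treated cells. MANF and CRELD2, which encode proteins released during ER stress, rose by 1.15 and 1.12. The treated libraries of all 3 lay above the untreated ones.

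ATF4, the transcription factor of the branch that EIF2AK3 starts, was higher by 1.11 (limma adjusted p 0.0135), although the groups overlapped. The limma adjusted p was 0.0653 without horse D and 0.0746 without W, and ATF4 stayed called without J or L. EIF2AK3 and DDIT3, with log2 fold changes of 0.46 and 0.73, did not pass in limma. DDIT3 rose in horses D, J and W and fell in L, and DESeq2 called it (adjusted p 0.0308). EDEM2, SIL1, ATF6B and CREB3L4 were the 4 lower genes. CREB3L4, with 85.7 to 181 normalized counts in untreated and 37.2 to 56.0 in treated cells, fell by 1.33 on the log2 scale (limma adjusted p 0.0107), while its relatives CREB3L1, CREB3L2 and CREB3 (log2 fold change 0.39) were called higher. For CREB3L4 the limma adjusted p was 0.0620 without horse D and 0.0625 without W. EDEM2, SIL1 and ATF6B had log2 fold changes of -0.60, -0.37 and -0.31, and none of them passed without horse D or without W. Of the 10 oligosaccharyltransferase genes, whose products attach N-glycans, 6 were higher, where 15.7% of all genes were higher. None of the 6 was called without horse D (limma adjusted p 0.0513 to 0.151) or without W (0.0519 to 0.140). Under total scaling DAD1 was the one still called higher and OST4 was called lower, where 8.01% of all genes were higher and 35.2% lower. LMAN1, the lectin cargo receptor also called ERGIC-53, rose by 0.90 and SURF4, another cargo receptor, by 0.71. LMAN1 was called whichever horse was left out, and SURF4 was not called without D (limma adjusted p 0.0508). Of the small GTPase genes SAR1A and SAR1B, which start the COPII coat, neither passed (log2 fold changes 0.33 and 0.075), and ARF4 rose by 0.71. For ARF4 the limma adjusted p was 0.0550 without horse D and 0.0634 without W.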

How the data were processed

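Poly(A)-selected RNA of 8 libraries was read from both ends. Per the methods and the labels, reads were trimmed (Trimmomatic 0.36), aligned to EquCab 3.0 (STAR 2.5.2b), counted per gene when uniquely placed (featureCounts, Subread 1.5.2) and normalized with DESeq2. The strand setting is not given in the sources used here. The deposited values are a signal: counts that the authors divided by 1 size factor per library. Of 15267 rows, the 1 without a gene name (0.0281% to 0.0531% of a library) was dropped. Division by the value of 1 read gave whole reads for 100% of values (tolerance 0.001 reads, wider for large counts), from which depth was taken.

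The main test was limma 3.58.1 (R 4.3.3, eBayes, intensity trend) on log2(normalized count + 1), which understates changes of low genes. Genes needed 10 normalized counts in 4 libraries. Horse and treatment were terms, since each horse gave both cultures. A call needed an adjusted p under 0.05, and over 2-fold meant a log2 size over 1, the study's threshold. Same-horse libraries departed together from their group means (r across genes 0.39 to 0.61). The average for different horses, -0.16, follows largely from centring on the group means and is no separate contrast. On the recovered reads DESeq2 1.42.0 called 5772 and edgeR 4.0.16 called 4426 of 14907 genes, with the horse as a term. Scripts were tested on simulated data. Paralogs were compared in scipy 1.17.1. Named by rule were genes over 2-fold, the largest 2 called changes per role group, 23 central genes, paralog families, and among other pathway genes those over 2-fold and the largest 3 called changes each way. Further genes and the splits into complexes were chosen after values were seen. Members and lists were chosen with earlier results of these data known. No sequence tables or gene coordinates were used here.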

Additional observations from a re-analysis of the deposited data

Results flagged for a closer look

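In 172 sets of 4 libraries (86 genes, 2 groups), 9 had 1 library set apart from the other 3 by Dixon's criterion at the 95% level, and chance sets apart about 1 in 20. For SSR1 the untreated library of horse D, with 11657, stood outside 16176 to 16694. For SEC24A the treated library of horse W, with 2618, stood outside 3296 to 3352. For TRAPPC3L the treated library of horse J, with 344, stood outside 127 to 137. The library of horse D for SSR1 was the low one of an untreated group, and that of horse W for SEC24A the low one of a treated group. In SEC23B, treated horse J had 5300.4 against 4888 to 4949.8 in the other 3. In SEC61A2, untreated horse J had 588 against 646 to 652 in the other 3. In SEC61G, untreated horse J had 2794 against 2275 to 2324 in the other 3. In SEC62, treated horse L had 6295 against 7188 to 7359 in the other 3. In TMED1, untreated horse J had 2179 against 1263 to 1415 in the other 3. In TRAPPC13, untreated horse W had 886 against 698 to 722 in the other 3. Horse J accounted for 5 of the 9, 3 untreated and 2 treated.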

How the results depend on the processing

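Pseudocounts of 0.5 and 5, no filter, a filter at 50 normalized counts, TMM and upper-quartile scaling, DESeq2 and edgeR each gave 42 to 49 higher genes, 3 or 4 lower genes, 6 genes over 2-fold and a median log2 fold change of 0.40 to 0.41. Without the replicate block 35 genes were higher, 1 lower and 5 over 2-fold, and 36 of the 47 calls held (11 were lost and none was gained). Without the intensity trend 29 were higher and 1 lower. Under total scaling 11 were higher, 13 lower and 3 over 2-fold, the median was 0.087, 15 of the 47 calls held, and the higher share of the calls was 45.8% in place of 91.5%. PDIA5 then had -0.058 and SPCS1, not called otherwise, -0.28, where the median of all genes was -0.30. With 1 horse left out, the number of higher genes ran from 7 (without D) to 40 (without J), that of lower genes from 0 (without D or W) to 2 (without J), and that of genes over 2-fold from 0 (without D) to 7 (without L), with medians of 0.33 to 0.46. These fits rest on 6 libraries and kept the horse as a block. The cause of the differences between settings was not tested. Of the genes over 2-fold, TRAPPC3L and SEC16B had under 100 normalized counts in some libraries, so their changes rest on few reads. Replicates are single cultures, so culture and horse cannot be told apart.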
